A study of Homo sapiens with 7 samples.

Results

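The ERK feedback genes described here are 10 genes whose transcription follows ERK activity: the phosphatases DUSP4, DUSP5 and DUSP6, the inhibitors SPRY1, SPRY2, SPRY4 and SPRED1, and the transcription factors ETV4, ETV5 and EGR1. They were taken by gene name and are 10 of the 22670 entries listed per library. Each name has 1 entry. RNA-seq was carried out on human ESCs of the SEES-3 line, an established embryonic stem cell line, kept without feeders on iMatrix-511 in StemFit AK-03 medium. JMJD3c-hESCs carry an HA-tagged catalytic region of JMJD3, the demethylase that removes methyl groups from lysine 27 of histone H3, with a nuclear localization signal and under a Tet-responsive element. They were sampled before doxycycline (Dox) was added (Day 0) and after 1, 2, 3 and 4 days in Dox (1 µg/ml). JMJD3c mut-hESCs carry the same region with a point mutation that removes its catalytic activity, and were sampled without Dox and after 4 days in the same dose. All 7 libraries come from cells that also express the reverse Tet-transactivator and hold the construct on a piggyBac transposon with a puromycin resistance gene. Both lines were made as stable clones, so a difference between the lines, with or without Dox, can also be one between clones. The day on which the untreated mutant cells were harvested is not given in the sources used here. With 1 library per condition, the differences below have no replicate check and are given without p-values.

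Receptor tyrosine kinases such as the FGF receptors signal through Ras, RAF, MEK and ERK, and human ESCs are kept undifferentiated in media that contain FGF2. ERK phosphorylates transcription factors that switch on immediate early genes such as EGR1 within minutes, and then genes whose products dampen the signal. Among these products, DUSP phosphatases remove the activating phosphates from ERK, and SPRY and SPRED proteins act upstream between the receptor and RAF. ETV4 and ETV5 are ETS factors of the PEA3 group whose genes are standard readouts of FGF signaling. FGF and ERK signaling also takes part in the formation of mesoderm and endoderm.

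Promoter sequences from RefSeq on GRCh38.p14, a later build than that of the expression values, were matched for 6 of the 10 genes (DUSP6, SPRY1, SPRY2, SPRY4, SPRED1 and EGR1) as 9 windows of 250 bases before an annotated transcription start. EGR1 and SPRY2 are shown because they stand for a gene whose level differed widely between libraries and one whose level did not. Capitals mark the matches to 3 motifs, searched on both strands: the CArG box, the binding motif of serum response factor, TGACG, the core of the cAMP response element, and CCGGAA, an ETS core. The motifs were chosen after the EGR1 promoter had been seen.
EGR1 (chr5:138465229-138465478, plus strand): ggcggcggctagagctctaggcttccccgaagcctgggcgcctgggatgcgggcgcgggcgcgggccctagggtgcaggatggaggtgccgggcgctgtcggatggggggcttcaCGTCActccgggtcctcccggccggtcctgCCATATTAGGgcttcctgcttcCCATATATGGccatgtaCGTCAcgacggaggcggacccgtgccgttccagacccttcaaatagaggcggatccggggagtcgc
SPRY2, the most upstream of 3 starts (chr13:80341127-80341376, minus strand): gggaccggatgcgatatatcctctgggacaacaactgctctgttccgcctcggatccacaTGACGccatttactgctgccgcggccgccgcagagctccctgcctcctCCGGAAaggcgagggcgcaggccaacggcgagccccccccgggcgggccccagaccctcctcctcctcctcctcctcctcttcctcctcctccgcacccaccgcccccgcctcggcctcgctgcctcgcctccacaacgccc
In the EGR1 window, CArG boxes start 105 and 83 bases before the start, and TGACG lies 135 and 66 bases before it, both times on the other strand, where it reads CGTCA. A CArG box was found in 407 of the 35116 RefSeq promoter windows of this length (1.16%) and at least 2 in 11 of them (0.0313%). None of the other 8 windows of these genes holds one. The SPRY2 window holds TGACG 190 bases and CCGGAA 142 bases before the start, motifs found in 21.2% and 14.5% of all windows. TGACG was also found in the SPRY4 window and CCGGAA in 1 of the SPRY1 windows. A match is a run of letters and says nothing of what binds there.

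The values are FPKM, fragment counts scaled to transcript length and to the number of mapped reads, and and can be set side by side between genes. Each was deposited with a 95% interval from Cufflinks, which covers the estimation error within that library but no difference between cultures. Intervals are called apart here if those of 2 libraries do not overlap. A gene was called higher at a ratio over 2 if the first library had more than 4 FPKM, and lower at a ratio under 0.5 if the second had more than 4 FPKM, the cutoffs used for these data in the study. Shares and medians of all genes cover those with more than 4 FPKM in either library compared. Counts and medians of a list cover all its genes. Log2 fold changes are on the log2(FPKM + 1) scale, on which changes of low genes such as DUSP4 and EGR1 come out smaller than their ratio. The estimated depth of the libraries was 3550000 to 7320000 reads and was lowest at Day 0, the reference of the time course. KDM6B, which encodes JMJD3, had 3.45 FPKM at Day 0 and 158 to 282 FPKM on Days 1 to 4. The mutant line had 2.40 FPKM of it without Dox and 454 FPKM with Dox. The sources used here do not say whether this entry counts reads of the construct, of the endogenous gene or of both. The study reports upregulation of endogenous JMJD3 in JMJD3c-hESCs with Dox. The level of the KDM6B entry with Dox can still not be divided between the construct and the endogenous gene from these values. All 6 human ESC markers examined (POU5F1, NANOG, SOX2, LIN28A, DNMT3B and TDGF1) were detected in every library, with a summed level of 2198 FPKM at Day 0 and 1557 FPKM at Day 4, and of 2028 and 1748 FPKM in the mutant line without and with Dox. In that line all 6 were lower with Dox, 5 with intervals apart. The 6 fibroblast markers had a summed level of 92.7 to 166 FPKM, of which THY1 made up 76.1 to 130 FPKM, COL1A2 12.5 to 28.4 FPKM and COL1A1 4.18 to 11.3 FPKM, while DCN and LUM were listed at 0 in all 7 libraries. COL1A1 was called lower in the untreated mutant line than at Day 0, at 4.18 against 11.3 FPKM. Among 4 neuroectodermal markers, OTX2 and PAX6 were called higher at Day 4, NES was not called and SOX1 had at most 1.03 FPKM. In the mutant line OTX2 was called lower with Dox, at 7.50 against 15.2 FPKM with overlapping intervals. PAX6 had 2.22, 9.62, 6.43, 2.72 and 5.91 FPKM at Days 0 to 4. It was also called higher at Days 1 and 2 but not at Day 3, and its interval overlapped that of Day 0 on each day. The summed level of 8 mesoendodermal markers (T, MIXL1, EOMES, GSC, FOXA2, SOX17, GATA4 and GATA6) was 5.49, 15.6, 63.3, 117 and 187 FPKM from Day 0 to Day 4, and 10.1 and 7.20 FPKM in the mutant line without and with Dox. These are bulk samples, in which fewer cells of a type and less RNA per cell cannot be told apart.

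At Day 4 of Dox, 2 of the 10 genes, DUSP4 and EGR1, were called higher than at Day 0 and none was called lower. Among all 10247 genes with more than 4 FPKM at either day, 5.87% were called higher and 7.56% lower. DUSP4 and EGR1 had 8.92 and 6.44 times their Day 0 FPKM. DUSP6 and DUSP5 were at 1.93 and 1.89 times the Day 0 level, under the cutoff but with intervals apart. The remaining 6 genes had ratios from 0.702 for SPRY1 to 1.51 for SPRED1 with overlapping intervals. In all, 8 of the 10 genes were above their Day 0 level, and 4 had intervals apart, against 44.8% and 12.1% of all genes. Their log2 fold changes had a median of 0.55, against -0.06 for all genes. DUSP4 and EGR1 passed 4 FPKM at Day 4 and not at Day 0. When the libraries were scaled to the same upper quartile, which shifted all values at Day 4 by 0.13 on the log2 scale, DUSP5 and DUSP6 were also called higher. The set thus held a pair of genes at several times their Day 0 level and a majority that moved by less than the cutoff.

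**Figure D1:**
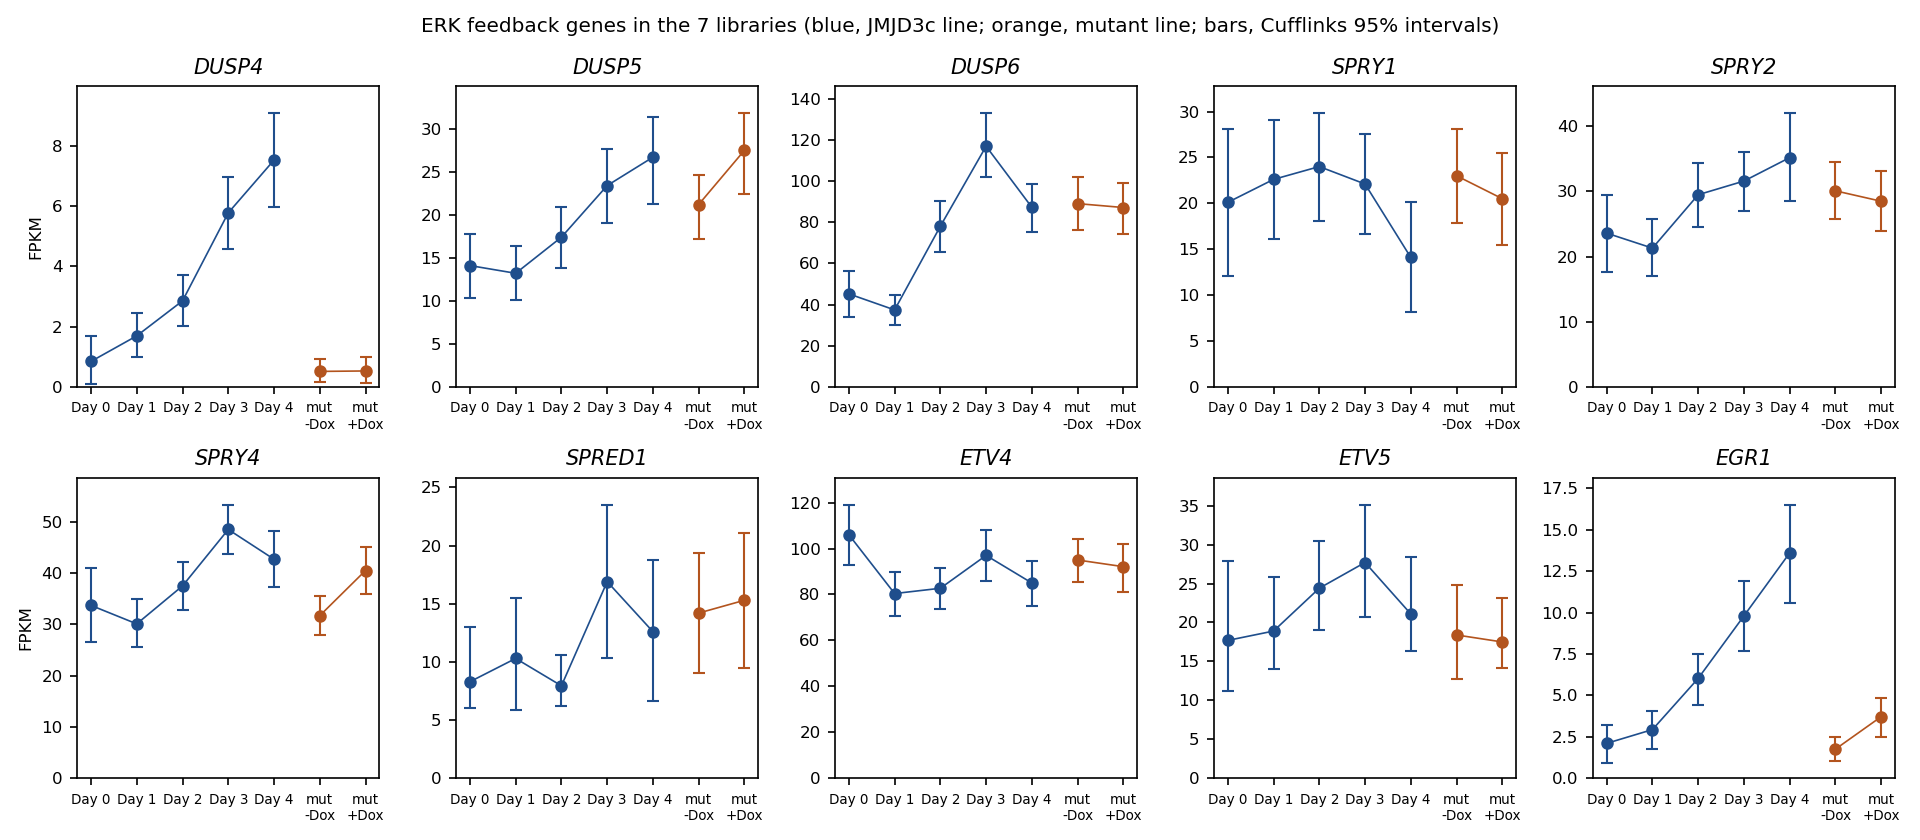
FPKM (y axis, linear from 0) of the 10 ERK feedback genes in each of the 7 libraries (x axis), with the JMJD3c line in blue, the mutant line in orange and the Cufflinks 95% intervals as bars. DUSP4 and EGR1 are higher at each later day, to 7.52 and 13.6 FPKM, while ETV4 stays between 80.4 and 106 FPKM in all libraries.

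The 3 phosphatases differed from each other in level and in course. DUSP4 (ENSG00000120875, chromosome 8 of hg19, 29190581 to 29208185, minus strand), a nuclear phosphatase that acts on ERK and on stress-activated kinases, had 0.843 FPKM at Day 0, followed by 1.69, 2.85, 5.77 and 7.52 FPKM on Days 1, 2, 3 and 4. The mutant line had 0.511 FPKM without Dox and 0.526 FPKM with Dox. Each treated JMJD3c library was above all 3 of the others, and from Day 2 its interval was apart from that of Day 0. The interval was 0.105 to 1.68 FPKM at Day 0 and 5.98 to 9.07 FPKM at Day 4. These values rest on few reads, about 16.0 at Day 0 and 196 at Day 4, and about 20.0 and 18.0 in the mutant line. Relative to Day 0, the ratio was 2.00 at Day 1 and 3.38 at Day 2, when the gene was still below 4 FPKM, and 6.84 at Day 3, when it was called. The log2 fold change at Day 4 was 2.21 against Day 0 and 2.50 against the untreated mutant line, a ratio of 14.7, so the call did not depend on which untreated library was used.

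DUSP6 (ENSG00000139318, chromosome 12, 89741009 to 89747048, minus strand), the cytoplasmic phosphatase specific for ERK, was the highest of the 3. Its level was 45.2 FPKM at Day 0, then 37.4, 78.1, 117 and 87.3 FPKM on Days 1 to 4. The gene was called higher at Day 3, with a ratio of 2.60 and intervals of 34.1 to 56.2 and 102 to 133 FPKM. At Day 4 it was at 0.744 of the Day 3 level, with the Day 4 interval, 75.2 to 98.8 FPKM, below that of Day 3. The level in the mutant line was 89.1 FPKM without Dox and 87.2 FPKM with Dox, about the level of the JMJD3c line at Day 4. Day 0 and Day 1 were thus the low libraries, and the other untreated library lay with Days 2 to 4. Between the untreated libraries, DUSP6 was 1.97 times as high in the mutant line as at Day 0. It was the only one of the 10 genes with intervals apart in that comparison, beside 13.7% of all genes. With the untreated mutant line as the reference, the Day 4 ratio was 0.980 and the log2 fold change -0.03, against 0.94 relative to Day 0. The difference at Day 4 therefore depended on the untreated library used.

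DUSP5 (ENSG00000138166, chromosome 10, 112257596 to 112271302, plus strand), a nuclear phosphatase specific for ERK, had 14.1 FPKM at Day 0 and 13.2, 17.4, 23.4 and 26.7 FPKM on Days 1 to 4. Its intervals were apart from Day 0 at Day 3 and at Day 4, when the ratio was 1.89. The mutant line was listed at 21.2 FPKM without Dox and 27.5 FPKM with Dox, the highest of the 7 values. The ratio at Day 4 was 1.26 relative to the untreated mutant line, with overlapping intervals. As for DUSP6, the Day 0 library was lower than the other untreated library, by a ratio of 1.51 between them with overlapping intervals.

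Of the 4 inhibitors, none was called at Day 4. SPRY4 (ENSG00000187678, chromosome 5, 141689992 to 141704605, minus strand), which like other Sprouty proteins interferes with the activation of Ras and RAF by receptors, was the highest of the 4 at Day 0. Its level was 33.7 FPKM at Day 0, then 30.1, 37.5, 48.5 and 42.7 FPKM on Days 1 to 4, with intervals apart from Day 0 at Day 3, when the ratio was 1.44. The mutant line had 31.7 FPKM without Dox and 40.5 FPKM with Dox, with intervals of 28.0 to 35.5 and 35.9 to 45.1 FPKM. SPRY4 was the only one of the 10 genes whose intervals were apart in the mutant line, beside 3.14% of all genes. Its ratio with Dox, 1.28, was close to the 1.27 of the JMJD3c line at Day 4, and the log2 fold changes of 0.34 and 0.33 differed by 0.01.

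SPRY2 (ENSG00000136158, chromosome 13, 80910111 to 80915086, minus strand), whose promoter window is printed above, had 23.6 FPKM at Day 0 and 21.3, 29.5, 31.6 and 35.2 FPKM on Days 1 to 4. The mutant line was listed at 30.1 FPKM without Dox and 28.5 FPKM with Dox. The Day 4 library was the highest, but its interval of 28.5 to 42.0 FPKM overlapped that of every library except Day 1. SPRY1 (ENSG00000164056, chromosome 4, 124317950 to 124324910, plus strand) was listed at 20.1, 22.6, 24.0, 22.1 and 14.1 FPKM at Days 0 to 4 and at 23.0 and 20.5 FPKM in the mutant line without and with Dox. SPRY1 was lowest at Day 4, with a ratio of 0.702 to Day 0 and of 0.614 to the untreated mutant line, and overlapping intervals in both comparisons.

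SPRED1 (ENSG00000166068, chromosome 15, 38544527 to 38649450, plus strand), which brings neurofibromin to the membrane to switch off Ras, was the lowest of the inhibitors. It was listed at 8.30, 10.3, 7.95, 16.9 and 12.6 FPKM at Days 0 to 4 and at 14.2 and 15.3 FPKM in the mutant line without and with Dox. The Day 3 library was called higher than Day 0 with a ratio of 2.04, but the intervals, 10.3 to 23.5 and 6.01 to 13 FPKM, overlapped. At Day 4 its ratio was 1.51 relative to Day 0 and 0.885 relative to the untreated mutant line.

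The ETS factors did not pass the cutoffs in any comparison. ETV4 (ENSG00000175832, chromosome 17, 41605212 to 41656988, minus strand) was the highest of the 10 genes at Day 0. It was listed at 106 FPKM at Day 0, 80.4, 82.7, 97.0 and 85.0 FPKM at Days 1 to 4, and 95 and 92.1 FPKM in the mutant line without and with Dox. The intervals at Day 1 and Day 2 were apart from that of Day 0, with ratios of 0.760 and 0.782, and by Day 4 the ratio was 0.804 with overlapping intervals. ETV4 had the smallest spread of the 10 genes, with the highest library 1.32 times the lowest. ETV5 (ENSG00000244405, chromosome 3, 185764097 to 185828107, minus strand) was listed at 17.7, 18.9, 24.4, 27.7 and 21.1 FPKM at Days 0 to 4 and at 18.4 and 17.5 FPKM in the mutant line without and with Dox. All its intervals overlapped those of Day 0, and the Day 4 ratio was 1.19.

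EGR1 (ENSG00000120738, chromosome 5, 137801179 to 137805004, plus strand), the zinc finger factor encoded by an immediate early gene, had 2.11 FPKM at Day 0 and 2.94, 6.03, 9.80 and 13.6 FPKM on Days 1 to 4. The mutant line was listed at 1.76 FPKM without Dox and 3.72 FPKM with Dox. The libraries at Days 2, 3 and 4 were above all the others, and those of the mutant line lay on either side of Day 0 and Day 1. EGR1 was called higher from Day 2, with ratios to Day 0 of 2.86, 4.65 and 6.44, and its interval was 0.895 to 3.22 FPKM at Day 0 and 10.6 to 16.5 FPKM at Day 4. About 22.0 reads lie behind the Day 0 value and 194 behind that of Day 4. With Dox the mutant line had 2.11 times its untreated level, but the value stayed under 4 FPKM, so it was not called, and the intervals, 1.04 to 2.52 and 2.48 to 4.87 FPKM, overlapped narrowly. At Day 4 the JMJD3c line had 3.65 times the level of the Dox-treated mutant line, with intervals apart, and 7.68 times that of the untreated mutant line.

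Compared day by day, the 10 genes did not move together. At Day 1 no gene was called, with 3.48% of all genes higher and 3.27% lower, and the median log2 fold change of the 10 was 0.00. DUSP4 and EGR1, under 4 FPKM at Day 0 and Day 1, could not be called there, nor could DUSP4 at Day 2. At Day 2 only EGR1 was called, higher, with 3.90% of all genes higher and 4.24% lower, and the median was 0.30. Day 3 had 4 genes called higher, DUSP4, DUSP6, EGR1 and SPRED1, and none lower, beside 4.73% and 4.48% of all genes, and the median was 0.66, against -0.01 for all genes. DUSP6, SPRY1, SPRY4, SPRED1, ETV4 and ETV5 were below their Day 3 level at Day 4, with ratios between these days from 0.639 for SPRY1 to 0.881 for SPRY4. Only DUSP4 and EGR1 were higher at each of the 4 steps from one day to the next, which held for 358 of the 10247 genes (3.49%). The steps share libraries, and the 4 days share the Day 0 reference. When the 7 libraries were put in order by level, neighbours in the order had intervals apart at 1 place each for DUSP4 and EGR1, between Day 2 and Day 3, and for DUSP6, between Day 0 and Day 2. For the other 7 genes, no neighbours in the order were apart. The share of all genes with such a gap was not determined. The summed level of the mesoendodermal markers given above was also higher at each later day, with 8 of 8 markers called higher at Day 4. None was called in the mutant line, where only 1 of the 8 had more than 4 FPKM in either library. The part of these markers in the DUSP4 and EGR1 levels was not tested.

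In the mutant line, none of the 10 genes was called with Dox, while 1.24% of 9735 genes were called higher and 1.53% lower. DUSP4 and EGR1 were under 4 FPKM in both libraries and could not be called at these levels. Of the 10 genes, 5 were above and 5 below the untreated value. Their median log2 fold change was -0.01, and that of all genes was 0.00. Aside from EGR1, DUSP5 and SPRY4, with ratios of 2.11, 1.30 and 1.28, the ratios lay between 0.893 and 1.08. DUSP4 had a ratio of 1.03. With Dox in both lines, DUSP4 and EGR1 were called higher in the JMJD3c line at Day 4, by ratios of 14.3 and 3.65 with intervals apart, and none was called lower, beside 6.56% and 3.00% of all genes. The other 8 genes had ratios between 0.688 and 1.23, all with overlapping intervals, and the median log2 fold change of the 10 was 0.04. Among all genes, 16.3% had intervals apart in this comparison.

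**Figure D2:**
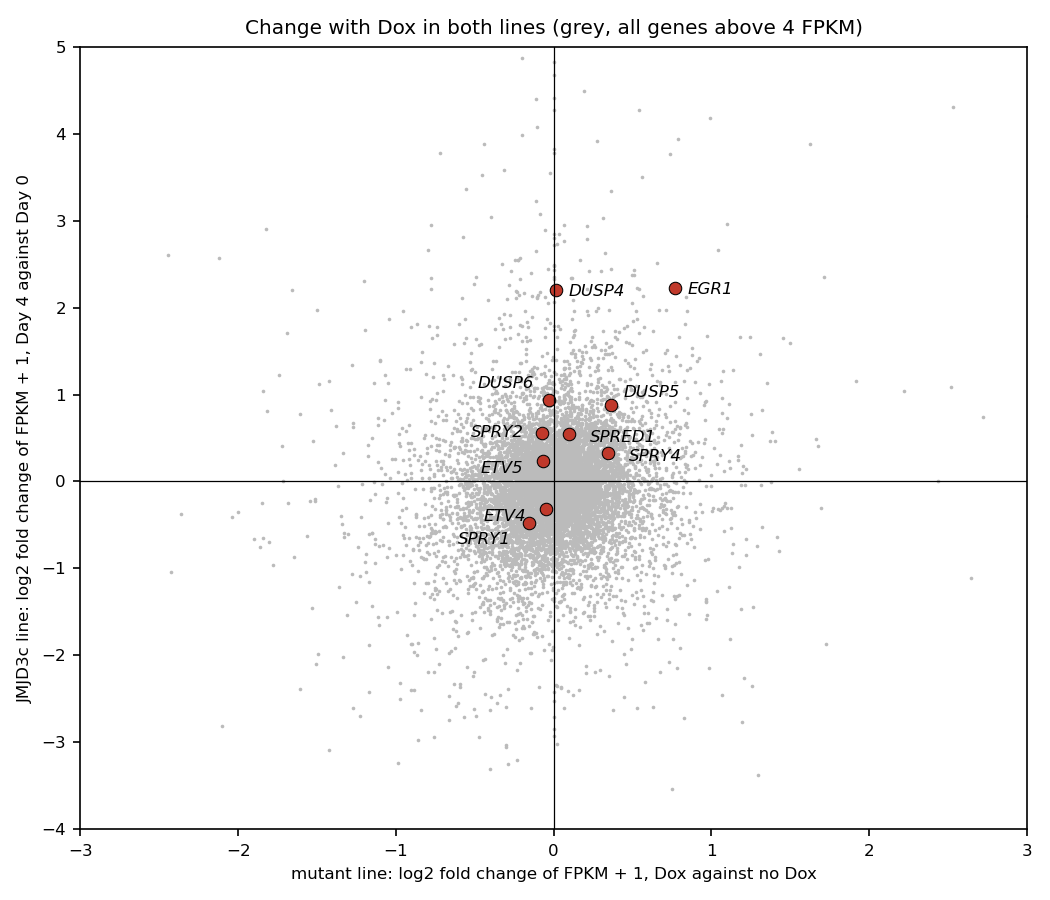
Log2 fold change of FPKM + 1 with Dox in the mutant line (x axis) and in the JMJD3c line at Day 4 (y axis) for 10532 genes above 4 FPKM in any of the 4 libraries (grey) and the 10 ERK feedback genes (red), with 19 genes outside the axes. DUSP4 lies at 0.01 and 2.21 and EGR1 at 0.77 and 2.23, while the other 8 genes lie between -0.48 and 0.94 in the JMJD3c line.

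Without Dox, none of the 10 genes was called between the mutant line and Day 0, while 2.78% of 10050 genes were called higher and 7.00% lower. DUSP4 and EGR1, under 4 FPKM in both untreated libraries, could not be called here either. DUSP6, SPRED1 and DUSP5 had the largest ratios, 1.97, 1.71 and 1.51, and DUSP4 the smallest, 0.606. DUSP4 and EGR1 were both lower in the untreated mutant line than at Day 0, at ratios of 0.606 and 0.838 with overlapping intervals. Taking the untreated mutant line as the reference for Day 4, DUSP4 and EGR1 were again called higher and no gene lower, beside 7.04% and 3.90% of 10044 genes. The median of their log2 fold changes was then 0.21, against -0.02 for all genes, and SPRY4, at a ratio of 1.35, was the only other gene with intervals apart.

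**Figure D3:**
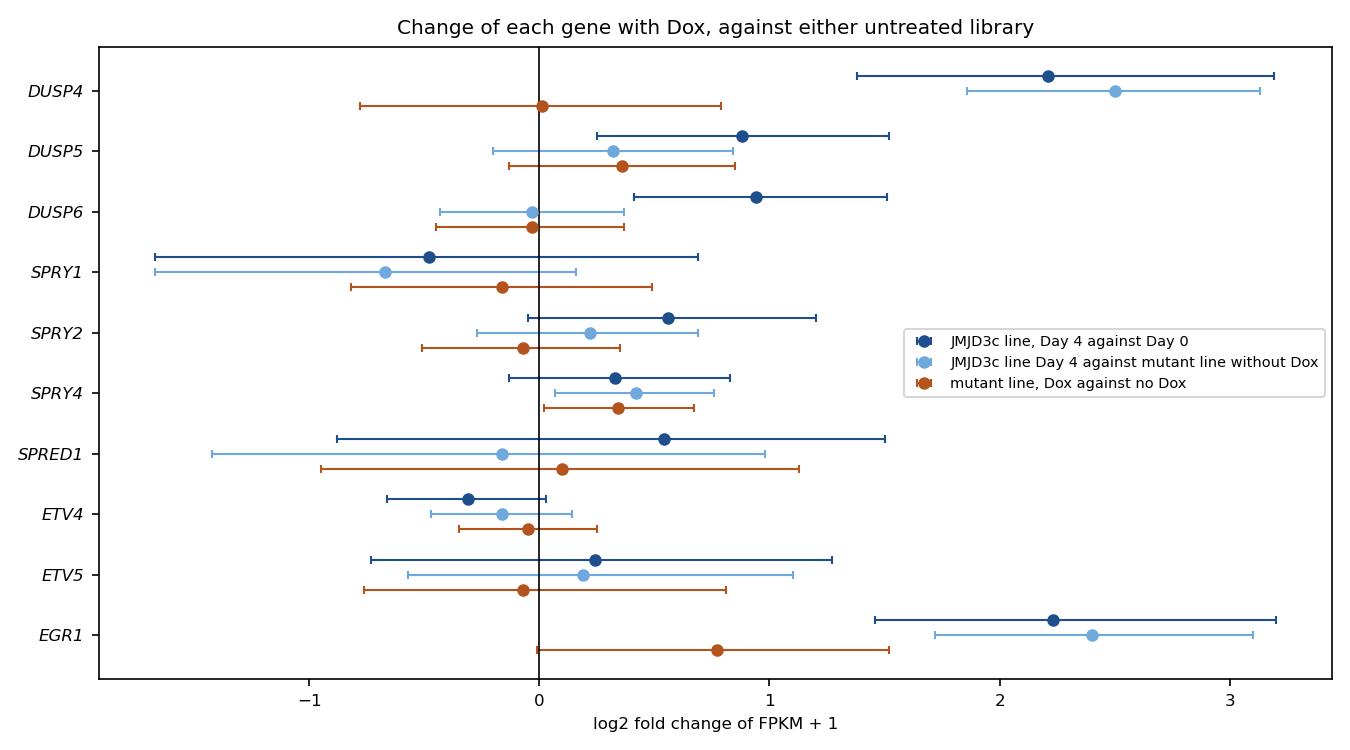
Log2 fold change of FPKM + 1 (x axis) of the 10 genes (y axis) for Day 4 against Day 0 (dark blue), Day 4 against the untreated mutant line (light blue) and the mutant line with against without Dox (orange), with bars from the lowest to the highest value that the Cufflinks intervals of both libraries allow. DUSP4 and EGR1 are above 2 against both untreated libraries, whereas DUSP6 is at 0.94 against one and at -0.03 against the other.

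A list of 13 other ERK targets, among them immediate early genes and IL17RD, was set beside the 10 genes. At Day 4, 12 of the 13 exceeded Day 0, 5 were called higher and 1 lower, 8 had intervals apart, and their median log2 fold change was 0.61. Among all genes with more than 4 FPKM at either day, 44.8% exceeded Day 0, 5.87% were called higher and 7.56% lower. Intervals were apart for 12.1% of them, and their median was -0.06. Of the 13 targets, 11 passed that level, and the counts include those that did not. FOS and JUN, which form the AP-1 factor, had 6.81 and 11.4 FPKM at Day 0, against 13.7 and 24.7 FPKM at Day 4. The FOS ratio was 2.02, with overlapping intervals. FOS was not above its Day 0 level on any day before, with 3.34, 2.41 and 6.78 FPKM at Days 1 to 3. FOSL1, another AP-1 subunit, had 1.81 FPKM at Day 0 and 6.54 FPKM at Day 4. In the mutant line it had 1.67 and 4.07 FPKM without and with Dox and was called higher too, just over the cutoff of 4 FPKM. The FOSL1 intervals overlapped in both of these comparisons. PHLDA1, listed at 6.69, 11.6, 12.3, 14.8 and 20.5 FPKM at Days 0 to 4, was called higher at Day 4 relative to each of the 3 other libraries compared. IL17RD, a membrane inhibitor of FGF signaling also called SEF, was listed at 11.1 FPKM at Day 0 and 27.1 FPKM at Day 4, but at 18.3 FPKM in the untreated mutant line, against which it was not called. MYC was called lower, at 53.3 FPKM at Day 0 and 22.4 FPKM at Day 4, also relative to the 45.8 FPKM of the untreated mutant line. Relative to that line, FOS, FOSL1, JUN and PHLDA1 were called higher at Day 4, FOS and FOSL1 with overlapping intervals, beside 7.04% of all genes. In the mutant line itself, 4 of the 13 were above and 9 below the untreated level, with a median of -0.07.

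The 11 relatives of the 10 genes in the DUSP, SPRY, SPRED, ETV and EGR families were mostly low, with 4 above 4 FPKM at Day 0 or Day 4, and none was called in any of the comparisons. ETV1, the third factor of the PEA3 group, was the highest at 36.6 FPKM at Day 0 and 23.3 FPKM at Day 4, SPRED2 was at 14.4 and 12.4 FPKM, and DUSP7, a cytoplasmic ERK phosphatase, at 7.05 and 5.28 FPKM. The median log2 fold change of the 11 at Day 4 was -0.20, against -0.06 for all genes. The other EGR genes, EGR2, EGR3 and EGR4, were listed at no more than 0.316 FPKM in any library, far below EGR1. These 3 were named after their values were seen.

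Upstream, the 24 genes of the cascade from the adaptors to ERK and its substrates had a median log2 fold change at Day 4 of -0.04, with 10 above and 14 below Day 0. Among all genes the median was -0.06, and 44.8% were above. Of the 24, only FRS2, the adaptor that links FGF receptors to Ras, was called higher and none lower, beside 5.87% and 7.56% of all genes. FRS2 was at 3.35 FPKM at Day 0 and 6.95 FPKM at Day 4. Its intervals overlapped, its levels between were 3.37, 8.64 and 2.88 FPKM at Days 1 to 3, and the untreated mutant line was at 7.05 FPKM. Another gene was the 1 of the 24 with intervals apart at Day 4 from Day 0, beside 12.1% of all genes. ELK1, an ETS factor phosphorylated by ERK that acts with serum response factor, was listed at 22.9 FPKM at Day 4 and was called higher relative to the mutant line without and with Dox, at 10.5 and 9.63 FPKM. Relative to the 13.4 FPKM of Day 0 it was not called.

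Of the 9 FGF ligands and receptors, 3 were above and 6 below their Day 0 level on Day 4, and the median of their log2 fold changes was -0.73. In this comparison 1 of the 9 was called higher and 1 lower. Among all genes, 44.8% were above Day 0, 5.87% were called higher and 7.56% lower, and the median was -0.06. The median of the 9 depended on the reference: it was -0.27 against the untreated mutant line and -0.10 against the Dox-treated one. The untreated mutant line was itself at -0.41 against Day 0, with 8 of the 9 lower. FGF17 was called higher, from 0.373 FPKM at Day 0 to 4.34 FPKM at Day 4, and was listed at 0 and 0.207 FPKM in the mutant line without and with Dox. FGF8, its close relative, was called lower, at 13.8 FPKM at Day 0 and 5.84 FPKM at Day 4, but with overlapping intervals. It was not called relative to the 8.98 FPKM of the untreated mutant line. FGFR1, the highest of the receptors, was listed at 105 and 107 FPKM at Day 0 and Day 4, and FGFR2 at 31.8 and 16.2 FPKM, with 19.8 FPKM in the untreated mutant line. FGFR2 was not called, but its intervals at Day 4 and in the untreated mutant line were both apart from that of Day 0. Of the 9 genes, 3 had intervals apart between Day 4 and Day 0, FGF17 and FGFR2 among them, beside 12.1% of all genes.

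**Figure D4:**
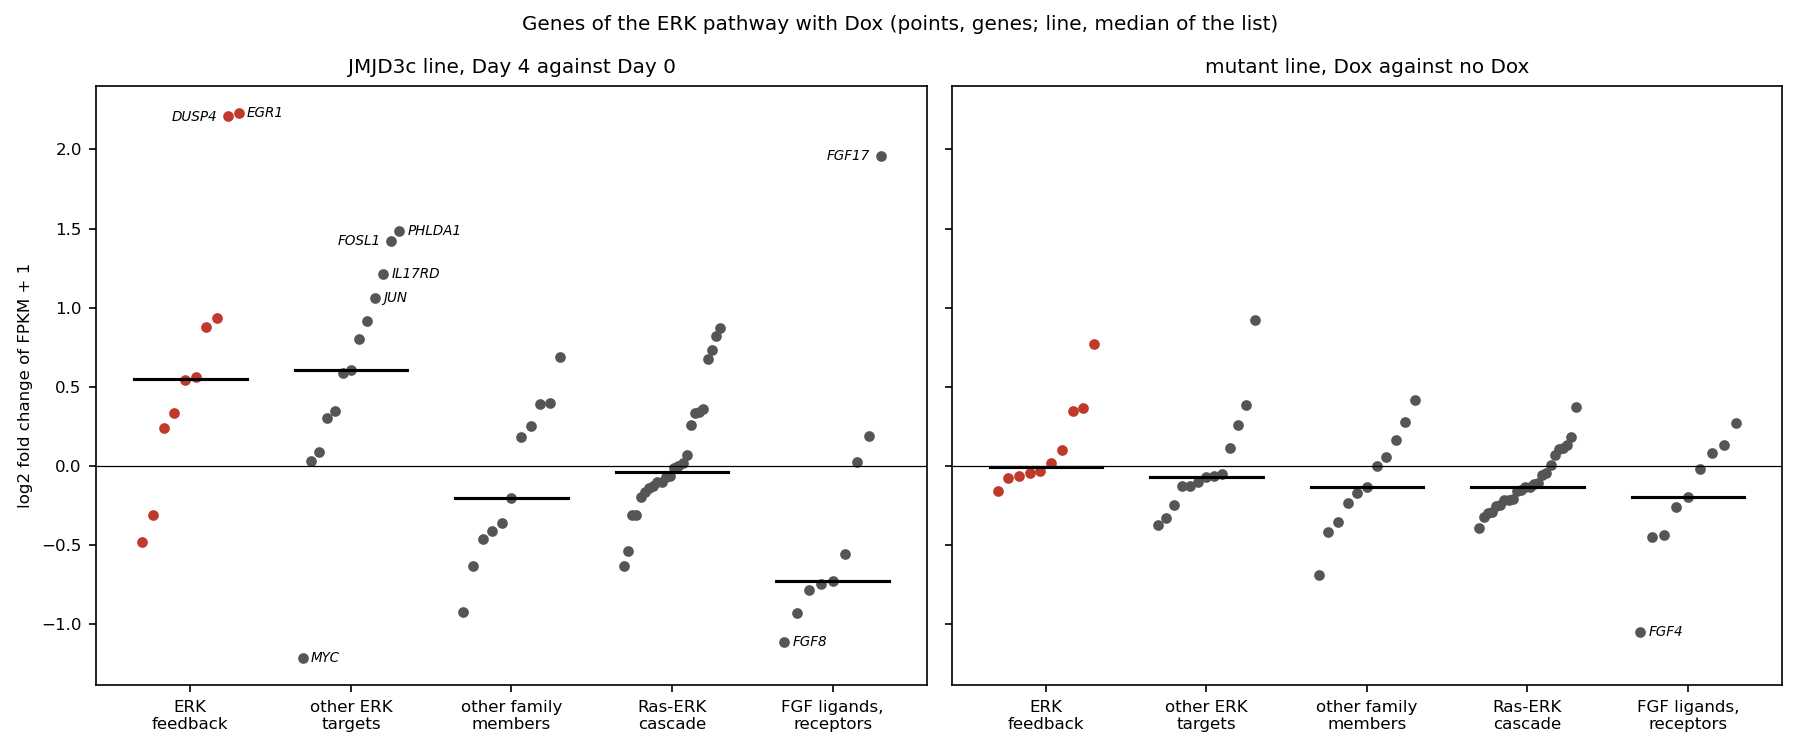
Log2 fold change of FPKM + 1 (y axis) of each gene in 5 lists (x axis) for Day 4 against Day 0 (left) and for the mutant line with against without Dox (right), with the ERK feedback genes in red, the median of each list as a line and genes at 1 or more in either direction named. At Day 4 against Day 0 the medians of the feedback genes and the other ERK targets are 0.55 and 0.61. Those of the cascade and of the FGF ligands and receptors are -0.04 and -0.73. Against the Dox-treated mutant line, not drawn here, the medians of the feedback genes and the other targets were 0.04 and 0.60.

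Among the 10 genes, the courses most alike over the 7 libraries were those of SPRY2 and SPRY4, with a root mean square difference of 0.166 between their centred log2 values, while DUSP4 and EGR1 were 0.325 apart. Outside the set, 10867 genes above 4 FPKM in at least 1 library were compared with EGR1 and DUSP6 by the same measure. The 3 nearest to EGR1 were APLNR, the apelin receptor, at 0.116, CSRP1 at 0.161 and SERPINE2, a secreted protease inhibitor, at 0.219. APLNR was listed at 0.165, 0.660, 1.55, 3.67 and 5.06 FPKM at Days 0 to 4 and at 0.160 and 0.641 FPKM in the mutant line without and with Dox. CSRP1 was listed at 19.9 FPKM at Day 0 and 75.6 FPKM at Day 4, and SERPINE2 at 29.3 and 162 FPKM. Both were higher in the mutant line with Dox than without, at 27.6 against 18.9 FPKM for CSRP1 and 34.1 against 29.1 FPKM for SERPINE2. These genes were picked for their likeness over the same 7 libraries, so features that they share with EGR1 or DUSP6 follow from the choice. The nearest to DUSP6 were ZNF354B at 0.224, AC012215.1 at 0.226 and SPPL2A, an intramembrane protease, at 0.229. SPPL2A was listed at 9.69 FPKM at Day 0 and 20.7 FPKM at Day 4, and at 18.8 and 16.3 FPKM in the mutant line without and with Dox. With 7 libraries and this many genes, the names are a description only.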

How the data were processed

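Poly(A) RNA of 7 samples, 1 library per condition, was sequenced by the authors as single-end reads of 150 bases on a MiSeq. Per the labels and methods, the authors processed reads with CASAVA 1.4, mapped them to hg19 with TopHat2 2.0.13 and estimated FPKM with Cufflinks 2.1.1, and they deposited the FPKM values and the bounds of their 95% intervals. The annotation release is not given in the sources used here. Deposited FPKM hold no read counts. The spacing of low values, which fall on multiples of 1 read, gave an estimate of depth, in absolute terms at Day 0 (300 genes with 1 exon and 1 transcript, 50 of them above 0, less 200 bases of length), and for other libraries from the commonest ratio of values below 0.5 FPKM. The intervals are Cufflinks estimates and cover neither culture nor library variation.

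Values were used as deposited. Calls used a fold of 2 and 4 FPKM without a pseudocount, with libraries grouped by their titles. PAICS, marked FAIL in the untreated mutant library, was left out of its comparisons. Without replicates, no test was run. Calculations used Python 3.11.15, numpy 2.4.6, pandas 2.3.3 and matplotlib 3.10.9, and were tested on simulated data. Transcript lengths came from GENCODE release 44 on GRCh37. Named are the 10 genes, KDM6B, the genes of each pathway list past the cutoffs or else its 3 highest, the marker genes, and the 3 nearest profiles of DUSP6 and EGR1. The 10 genes and the lists were chosen with earlier results of these data known. Alternatives changed the FPKM and fold cutoffs, pseudocount, scaling, use of the intervals, treated day and untreated reference. The values of 1 gene of the lists are not reported here.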

Additional observations from a re-analysis of the deposited data

Results flagged for a closer look

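For 3 of the 10 genes, FPKM was above the untreated level with Dox in the JMJD3c line at Day 4 and below it with Dox in the mutant line. DUSP6 had log2 fold changes of 0.94 and -0.03, a difference of 0.97, SPRY2 of 0.56 and -0.07, a difference of 0.63, and ETV5 of 0.24 and -0.07, a difference of 0.30. In the mutant line the intervals of all 3 overlapped, and 50.9% of all genes were above the untreated level there. The share of all genes with opposite directions in the lines was not determined. With 1 library per condition the difference between the lines was not tested. The DUSP6 difference was also seen between the untreated libraries, where the mutant line had 1.97 times the Day 0 level, and for SPRY2 and ETV5 the intervals overlapped in both lines.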

How the results depend on the processing

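The count of genes called higher at Day 4 against Day 0 was 2, and was 3 with scaling to a median ratio of 1 (DUSP6 added), 4 with scaling to the upper quartile (DUSP5 also), 5 at a fold of 1.5 (SPRED1 also) and 4 with Day 3 as the treated library. The median log2 fold change of 0.55 was 0.67 with scaling to the upper quartile, 0.21 with the untreated mutant line as the reference and 0.66 at Day 3. The count of 0 in the mutant line was 1, EGR1, with a cutoff of 1 FPKM and with no cutoff. Between the untreated libraries the count of 0 was 1, DUSP6, with either scaling and 3 at a fold of 1.5, with DUSP5 and SPRED1. The log2 fold change of DUSP4 at Day 4, 2.21, was 1.25 with a pseudocount of 4, and that of DUSP6, 0.94, was -0.03 with the untreated mutant line as the reference. Against that reference DUSP5 went from 0.88 to 0.32 and SPRED1 from 0.54 to -0.16, and with a pseudocount of 0.1 DUSP4 went to 3.01, all inside the wide range that the Cufflinks intervals of Day 0 and Day 4 allow. The other counts stayed within 1.5 times, medians within 0.1 and single genes within that range (79 alternatives for counts and medians and 48 for single genes, those just given included). DUSP4 and EGR1, the called genes, kept their direction in all of them. No paired analysis was possible because each condition has 1 library and the titles carry no replicate numbers. The lowest estimated depth, 3550000 reads, was that of Day 0, so the ratios of DUSP4 and EGR1 rest on about 16.0 and 22.0 reads there and their size is uncertain.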
